A study of Mus musculus with 21 samples.

Results

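The circadian clock output genes described here are 10 of the 22136 genes in the deposited count table, found through the Ensembl gene identifiers of Per1, Per2, Per3, Dbp, Tef, Nr1d1, Nr1d2, Ciart, Nfil3 and Bhlhe41. Their messenger RNA was followed in 21 left ventricles of wild type male C57BL/6 mice, 3 hearts in each of 7 groups, by polyA-selected RNA sequencing. All mice were 8 weeks old at surgery and all hearts were collected 8 weeks later. Sham mice were operated on without constriction of the aorta, and AB mice had the ascending aorta banded, which loads the left ventricle with pressure. AB_Implant mice were banded and carried the stimulator, implanted at week 1, without being stimulated. In the remaining 4 groups banding was followed by low-level stimulation of the left cervical vagus nerve (LL-VNS, 4 µA, 2 Hz), delivered by a cuff electrode wired to a biodegradable triboelectric nanogenerator, a small generator driven by motion. VNS20_1w, VNS20_2w and VNS20_4w were stimulated for 20 min a day from week 1, 2 or 4 after banding, for 7, 6 and 4 weeks. VNS10_1w was stimulated for 10 min a day from week 1 for 7 weeks. Stimulation was given in the morning, per the labels, while the hour at which each heart was collected is not given in the sources used here. The libraries were labelled as biological replicates.

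The mammalian clock is a transcription loop that runs in nearly every cell, heart muscle cells included. BMAL1, encoded by Arntl, pairs with CLOCK or NPAS2, binds E-boxes and switches on the Per and Cry genes, whose proteins shut the pair off again. The same pair drives Nr1d1 and Nr1d2, which encode REV-ERB alpha and beta and repress Arntl through ROR elements, and Dbp and Tef, whose PAR bZIP proteins activate D-box genes that NFIL3 represses. In mouse tissues Dbp, Per and Nr1d messages therefore peak at hours when the Arntl message is low, and the ratio between them depends on the time of day.

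Library totals were 11577509 to 19414865 counts, of which 34.4% to 55.3% fell on mitochondrially encoded genes. Levels are given in CPM, the count of a gene scaled to the total of its library. Libraries also differed in how strongly their counts favoured long genes. This length slope, the slope of log2 CPM on log2 exon length over the genes of a library, ran from -0.466 to 0.174, and the first principal component, with 64.3% of the variance of all tested genes, followed it with r = 0.99 across the 21 libraries. VNS20_1w replicate 2 (0.161), VNS20_2w replicate 1 (0.174) and VNS10_1w replicate 2 (0.148) stood apart at the top, with the next library at -0.007. Only 27.4% of the variance of the slope lay between groups. All 5 heart muscle markers (Myh6, Tnnt2, Actn2, Ryr2 and Pln) were present in every library, at a summed 21138 to 40993 CPM. The 3 atrial markers summed to 0.595 to 551 CPM. The 4 hepatocyte markers (Alb, Apoa1, Fabp1 and Cyp3a11) summed to at most 1.05 CPM in the 9 hearts of the groups without stimulation and to 20.5 to 79.6 CPM in the 12 stimulated hearts, so stimulation and this marker signal cannot be told apart. In whole tissue, fewer cells of a type and less RNA per cell cannot be told apart either.

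Per kilobase of exon, which is the scale on which genes can be compared, Dbp was the most abundant of the 10 with a mean of 21.2 CPM per kb over the 21 libraries. Nr1d1 (12.3), Nfil3 (10.2), Per1 (8.27) and Ciart (4.68) came next on that scale. The order changed with the group: Nr1d1 averaged 24.2 CPM per kb in Sham against 20.4 for Dbp, and Nfil3 averaged 29.5 in AB_Implant, also above Dbp. Tef (2.34), Nr1d2 (1.95), Per2 (1.74), Bhlhe41 (0.948) and Per3 (0.746 CPM per kb) were lower, and Arntl itself averaged 0.642 CPM per kb. All 10 passed the filter on low counts (1 CPM in at least 3 libraries), and the smallest count behind any value was 9, for Per3. Exons of Dbp overlap Sphk2, those of Nr1d1 overlap Thra, those of Tef overlap Gm17597 and those of Bhlhe41 overlap Gm43909, in each case on the opposite strand. The strand setting of the counting is not given in the sources used here, so reads from these neighbours may be included.

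Promoter sequences show which clock elements lie next to the starts of these genes. RefSeq promoters (build GRCm38.p6, 300 bases each around the gene's start) were matched by symbol for 9 of the 10 genes, all but Per2. Letters were searched on both strands. The E-box CACGTG, bound by BMAL1 with CLOCK, was present in 7.15% of all 32851 promoters and in 4 of the 9 genes, namely Per1, Tef, Ciart and Bhlhe41. The related element CACGTT occurred in 4.68% of promoters and, of the 9, in Nr1d1. The D-box TTATGTAA, bound by DBP, TEF and NFIL3, occurred in 0.938% of promoters and, of the 9, in Per3. The ROR element core TAGGTCA occurred in 2.61% of promoters and, of the 9, in Nfil3; it also occurred in the second listed promoter of Arntl. No promoter searched for these genes held more than 1 of the 4 motifs. Shown first are 3 of the 4 genes with an E-box, with the E-box in capitals. They were picked because, with the length slope removed, they followed Arntl as described below, while Bhlhe41 did not. Dbp and Per3 followed Arntl there with no E-box in the window. The Ciart promoter is chr3:95882179-95882478 (minus strand), the first listed Tef promoter chr15:81802423-81802722 (plus strand) and the first listed Per1 promoter chr11:69098699-69098998 (plus strand), and Ciart holds 3 copies.
Ciart: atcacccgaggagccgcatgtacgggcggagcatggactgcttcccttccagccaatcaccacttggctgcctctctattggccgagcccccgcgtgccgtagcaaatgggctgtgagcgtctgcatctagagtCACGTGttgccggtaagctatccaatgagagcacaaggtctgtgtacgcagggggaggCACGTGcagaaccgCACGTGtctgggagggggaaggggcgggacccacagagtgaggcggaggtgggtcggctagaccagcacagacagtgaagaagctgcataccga
Tef: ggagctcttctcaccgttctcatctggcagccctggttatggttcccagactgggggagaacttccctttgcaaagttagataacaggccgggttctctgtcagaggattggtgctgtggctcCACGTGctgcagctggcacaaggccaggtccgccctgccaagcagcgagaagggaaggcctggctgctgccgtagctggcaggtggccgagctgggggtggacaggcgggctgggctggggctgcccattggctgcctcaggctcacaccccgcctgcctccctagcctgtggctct
Per1: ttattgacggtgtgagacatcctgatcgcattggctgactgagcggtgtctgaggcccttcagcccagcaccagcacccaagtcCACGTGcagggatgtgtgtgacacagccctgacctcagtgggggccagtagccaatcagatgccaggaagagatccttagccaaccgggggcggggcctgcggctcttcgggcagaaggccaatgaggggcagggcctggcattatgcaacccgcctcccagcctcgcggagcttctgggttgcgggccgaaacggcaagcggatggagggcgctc

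The other elements are shown for 1 gene each, with the motif in capitals: the pair of D-boxes of Per3 at chr4:151044616-151044915 (minus strand), the CACGTT element of Nr1d1 at chr11:98775328-98775627 (minus strand, reading AACGTG on the strand printed), and the ROR element of Nfil3 at chr13:52980990-52981289 (minus strand, reading TGACCTA on the strand printed). The second Arntl promoter, chr7:113207261-113207560 (plus strand), carries the same core. A match describes letters only.
Per3: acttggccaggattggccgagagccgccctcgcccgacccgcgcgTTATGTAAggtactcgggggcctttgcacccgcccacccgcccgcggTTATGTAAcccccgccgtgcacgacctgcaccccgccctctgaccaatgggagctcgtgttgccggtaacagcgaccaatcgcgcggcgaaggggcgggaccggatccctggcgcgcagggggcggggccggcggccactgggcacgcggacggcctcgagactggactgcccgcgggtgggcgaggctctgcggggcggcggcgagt
Nr1d1: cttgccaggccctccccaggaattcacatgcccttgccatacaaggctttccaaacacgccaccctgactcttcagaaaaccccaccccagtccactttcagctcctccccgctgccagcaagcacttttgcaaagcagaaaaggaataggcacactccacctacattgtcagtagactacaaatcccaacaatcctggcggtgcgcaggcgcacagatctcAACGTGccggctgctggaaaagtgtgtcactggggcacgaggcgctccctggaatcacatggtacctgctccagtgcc
Nfil3: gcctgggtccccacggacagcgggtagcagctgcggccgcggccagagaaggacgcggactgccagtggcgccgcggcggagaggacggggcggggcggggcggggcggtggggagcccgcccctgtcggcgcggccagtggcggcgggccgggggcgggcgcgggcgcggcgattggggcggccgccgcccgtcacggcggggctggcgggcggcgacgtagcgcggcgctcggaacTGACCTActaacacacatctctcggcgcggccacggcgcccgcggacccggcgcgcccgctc
Arntl: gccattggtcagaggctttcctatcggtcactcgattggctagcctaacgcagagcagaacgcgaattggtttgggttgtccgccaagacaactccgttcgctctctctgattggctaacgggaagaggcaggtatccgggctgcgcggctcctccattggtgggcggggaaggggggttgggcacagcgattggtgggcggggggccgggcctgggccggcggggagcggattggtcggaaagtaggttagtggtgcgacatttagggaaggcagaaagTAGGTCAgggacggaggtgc

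Nfil3 was the clock output gene called between groups in edgeR. It encodes a bZIP repressor, also called E4BP4, that competes with DBP and TEF for D-boxes and is also induced by several stress signals. Nfil3 was at 68.5, 24.7 and 86.0 CPM in AB_Implant hearts, against 10.9, 9.35 and 14.6 in Sham and 13.4, 12.0 and 13.2 in AB. The AB_Implant values lay above those of Sham and AB without overlap. In the stimulated hearts it was at 8.63, 8.81 and 8.99 CPM in VNS20_1w, 18.6, 19.8 and 24.7 in VNS20_2w, 19.7, 5.95 and 5.63 in VNS20_4w, and 16.5, 29.1 and 16.8 in VNS10_1w. In CPM VNS20_1w lay below every other group apart from VNS20_4w. AB_Implant replicate 2 stood lower than the other AB_Implant hearts and, in CPM, within the range of VNS10_1w. After TMM scaling, which the tests use, VNS20_1w overlapped Sham, at 2.78 to 3.68 against 3.28 to 3.68 in log2 CPM. AB_Implant replicate 2 (4.55) then lay above the VNS10_1w hearts (4.17 to 4.44).

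The mean Nfil3 level in AB_Implant was 59.7 CPM (SD 31.6, 3 hearts) against 11.6 (SD 2.71, 3 hearts) in Sham, and its log2 fold change was 2.19 (SE 0.44, adjusted p = 0.0467, edgeR quasi-likelihood test, Benjamini-Hochberg over 12100 genes). In VNS20_1w, Nfil3 averaged 8.81 CPM (SD 0.18, 3 hearts), and it fell against AB_Implant by 2.37 on the log2 scale (SE 0.45, adjusted p = 0.0195 in the same test). That SD is of CPM without TMM scaling. After TMM scaling, which the test uses, the 3 hearts lay farther apart, at 3.25, 2.78 and 3.68 in log2 CPM. The F test over all 7 groups also passed for Nfil3 (adjusted p = 0.0443). Nfil3 was the only 1 of the 10 genes called in these comparisons, which called 0.281%, 0.463% and 0.537% of all tested genes. DESeq2 called it in all 3 as well, with 1.95%, 1.57% and 4.47% of all genes, and in the F test it also called Nr1d1. At an unadjusted p under 0.05 stood 3, 2 and 2 of the 10, and 9.64%, 8.77% and 10.6% of all genes. Groups accounted for 70.9% of the variance of Nfil3, against a median of 35.4% over all tested genes.

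Other Nfil3 differences did not pass. AB_Implant exceeded AB by 1.82 on the log2 scale (SE 0.44, adjusted p = 0.303, edgeR), and VNS20_4w stood at -1.85 against AB_Implant (SE 0.44, adjusted p = 0.0796). VNS10_1w stood at -1.29 (adjusted p = 0.403) and VNS20_2w at -1.06 (adjusted p = 0.823) against AB_Implant. AB against Sham gave 0.37 (SE 0.43, adjusted p = 0.838), and DESeq2 called Nfil3 in AB_Implant against AB and in VNS20_4w against AB_Implant as well.

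The Nfil3 calls rested on single hearts in part. The fold against Sham lost its call without Sham replicate 1 (adjusted p = 0.218), 2 (0.249) or 3 (0.0940), and without AB_Implant replicate 1 (0.214) or 3 (0.251). It also lost it without any 1 of AB replicates 1, 2 and 3 or VNS20_1w replicates 1 and 3. The same held without VNS20_2w replicate 2, VNS20_4w replicate 2 or VNS10_1w replicate 1 or 3. Adjusted p was then 0.0516 to 0.0728. These hearts are in neither group compared and enter through the shared filter, scaling, spread and adjustment over all genes. The difference between VNS20_1w and AB_Implant lost its call without AB_Implant replicate 1 (adjusted p = 0.0927) or 3 (0.105) and without VNS20_1w replicate 1 (0.107) or 2 (0.120). The F test kept its call without AB_Implant replicate 2, VNS20_2w replicate 1, VNS20_4w replicate 1 or VNS20_4w replicate 3, and lost it without any 1 of the other 17 libraries (adjusted p = 0.0510 to 0.263). In VNS20_4w against AB_Implant, Nfil3 gained a call without AB_Implant replicate 2 (adjusted p = 0.0462), VNS20_2w replicate 1 (0.0414) or VNS20_4w replicate 1 (0.0120). The direction of the AB_Implant against Sham and VNS20_1w against AB_Implant differences held in all 31 alternatives, at 1.95 to 2.52 for AB_Implant against Sham and -2.70 to -2.10 for VNS20_1w against AB_Implant on the log2 scale.

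Heat shock genes were high in the same hearts as Nfil3. Hspa1a, which encodes an inducible HSP70 chaperone, was at 28.0 to 74.2 CPM in AB_Implant and at 0.517 to 5.77 in Sham, and it rose by 4.14 on the log2 scale (SE 0.71, adjusted p = 0.0376, edgeR). Across 21 libraries Nfil3 correlated with Hspa1a at r = 0.86 and rho = 0.84 (adjusted permutation p = 0.000205 for each, over 41 relations), and at r = 0.75 without the 2 libraries farthest from the Nfil3 median. Nfil3 correlated with Atf3, a stress-induced bZIP gene, at r = 0.87 and rho = 0.87 (adjusted permutation p = 0.000205 for each), and at r = 0.77 without those 2 libraries. Within groups, with the length slope removed, r was 0.87 with Atf3 (rho = 0.88, adjusted permutation p = 0.0141 and 0.00902). For Hspa1a r was then 0.64 and rho 0.73, and rho did not pass (adjusted permutation p = 0.0479 and 0.0646). The part of these genes in the Nfil3 differences was not tested. The fibroblast markers (3 of 3 present in every library) summed to 427 to 882 CPM in AB_Implant and 408 to 495 CPM in Sham, and their part was not tested.

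**Figure D1:**
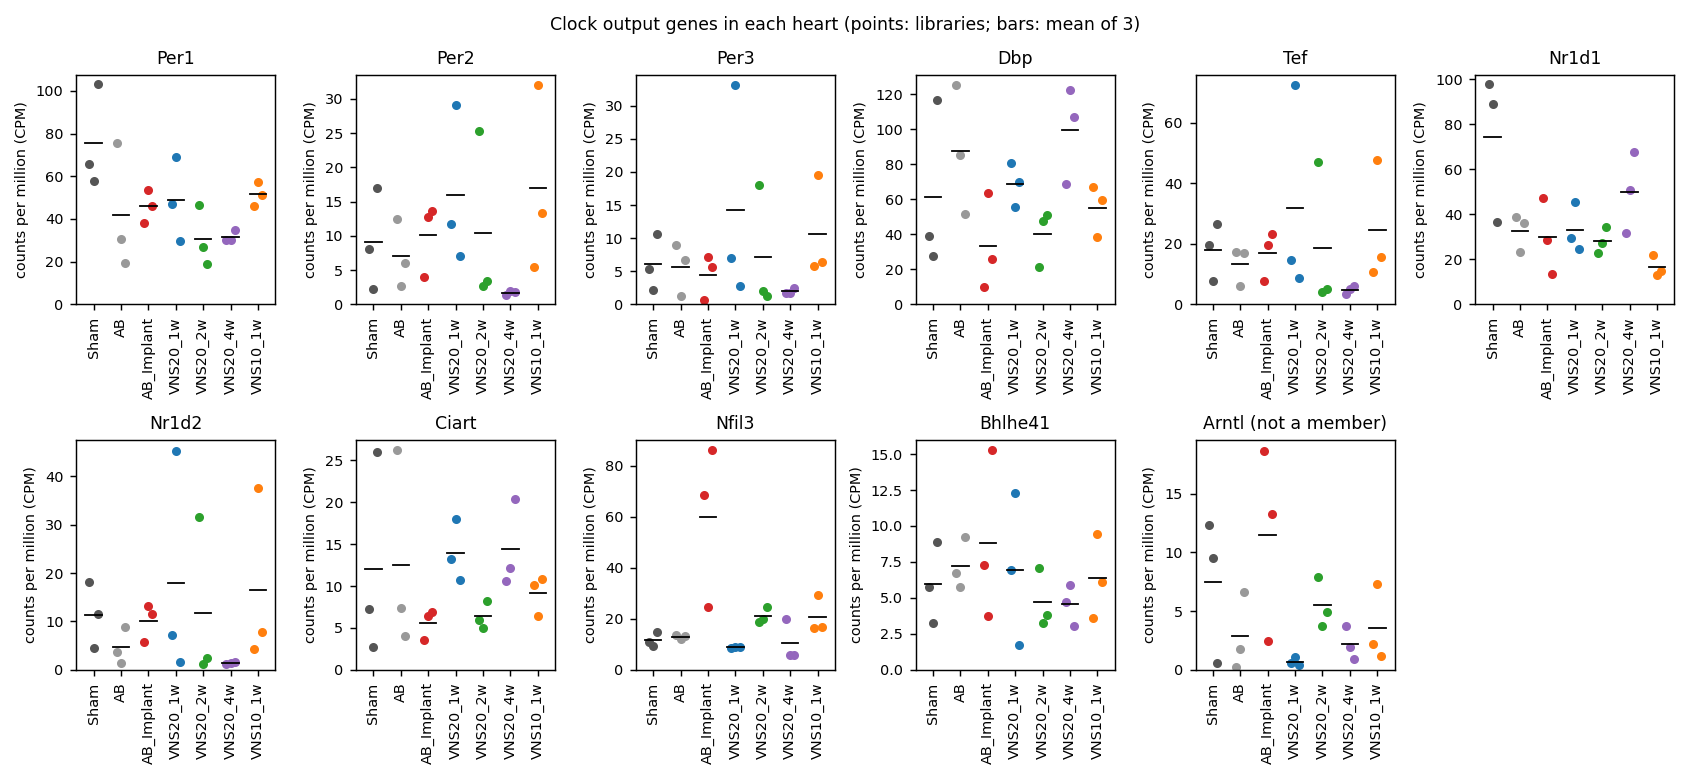
Level of each of the 10 clock output genes and of Arntl, in CPM on the vertical axes, in the 3 hearts (points) of each group, with the group mean as a bar. Nfil3 stands high in AB_Implant at a mean of 59.7 CPM, and in Per2, Per3, Tef and Nr1d2 a single stimulated heart lies far above the others of VNS20_1w, VNS20_2w and VNS10_1w.

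Apart from Nfil3, none of the 10 genes was called in any of 18 group contrasts or 2 F tests in edgeR, over which 0 to 6 of the 10 had an unadjusted p under 0.05. For banding, AB against Sham, the mean of AB and AB_Implant against Sham, and AB_Implant against AB each called 0% of all tested genes. In these 3 contrasts 1, 3 and 3 of the 10 had an unadjusted p under 0.05, as did 4.99%, 7.12% and 9.08% of all genes, and DESeq2 called 0, 0 and 1 of them. In AB_Implant against AB DESeq2 called 0.562% of all genes. Against AB_Implant, 0 of the 10 were called in VNS20_2w, VNS20_4w and VNS10_1w, where 0.174%, 0.322% and 0.157% of all genes were. At an unadjusted p under 0.05 stood 1, 6 and 1 of the 10, beside 5.1%, 26.3% and 6.68% of all genes. DESeq2 called 2 of them, Nfil3 and Dbp, in VNS20_4w, where it called 3.81% of all genes, and 0 in VNS20_2w and VNS10_1w.

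Against AB, where 0.289%, 0.107%, 0.149% and 0.0496% of genes were called in VNS20_1w, VNS20_2w, VNS20_4w and VNS10_1w, 0 of the 10 passed in edgeR and 0 in DESeq2, with 0, 0, 1 and 0 at an unadjusted p under 0.05, beside 4.3%, 3.97%, 5.19% and 5.23% of all genes. Against Sham the backgrounds were 0.174%, 0.231%, 0.405% and 0.132% in the same order, again with 0 of the 10 called in edgeR and 1, 3, 3 and 1 at an unadjusted p under 0.05, beside 4.07%, 7.08%, 26.6% and 5% of all genes. DESeq2 called Nr1d1 in VNS10_1w, where it called 0.521% of all genes. Pooling the 4 stimulated groups and setting their mean beside that of the unstimulated banded groups called 0.438% of genes, and VNS20_1w against VNS10_1w called 0.0992%, with 0 of the 10 in each in edgeR and DESeq2 and 1 each at an unadjusted p under 0.05, beside 5% and 4.54% of all genes. The hepatocyte marker signal separates stimulated from unstimulated hearts in the same way, and its part in these results was not tested. The F test over the start weeks of the 20 min groups called 0% of genes, with 0 of the 10 called in edgeR and DESeq2 and 4 at an unadjusted p under 0.05, beside 9.25% of all genes. The contrasts against AB_Implant share its 3 hearts, as those against AB and against Sham share theirs.

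The PAR bZIP activators Dbp and Tef spread widely within groups. Dbp was at 39.0, 27.8 and 117 CPM in Sham, 125, 85.4 and 51.8 in AB, and 9.85, 63.5 and 25.8 in AB_Implant. In the stimulated hearts Dbp was at 80.8, 55.8 and 70.1 CPM in VNS20_1w, 21.4, 47.4 and 51.0 in VNS20_2w, 68.7, 123 and 107 in VNS20_4w, and 66.9, 38.5 and 59.5 in VNS10_1w. Every neighbouring pair of groups in the order of mean Dbp level overlapped, from VNS20_4w at 99.4 CPM (SD 27.7, n = 3) down to AB_Implant at 33.1 (SD 27.5, n = 3). The log2 difference between these ends was 2.14 (SE 0.68) and did not pass (adjusted p = 0.142, edgeR), although DESeq2 called it (adjusted p = 0.0329).

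Tef was at 19.5, 7.83 and 26.6 CPM in Sham, 17.4, 5.98 and 16.8 in AB, 7.86, 19.7 and 23.4 in AB_Implant, and 3.42, 5.09 and 6.10 in VNS20_4w. In each of VNS20_1w, VNS20_2w and VNS10_1w, 1 heart stood far above the rest at 72.6, 47.2 and 47.9 CPM, and these were the 3 libraries with the steepest length slope. The other hearts of those 3 groups were at 3.98 to 15.6 CPM. The within-group SD of Tef was 0.90 and that of Dbp 0.92 on the log2 scale, against a median of 0.41 over all tested genes. Hlf, the remaining PAR bZIP gene, ran from 0.570 to 8.09 CPM and did not pass either (adjusted p = 0.638 over 7 groups, edgeR).

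Ciart, a repressor of BMAL1 and CLOCK also called CHRONO, moved with Dbp. It was at 7.24, 2.73 and 26.0 CPM in Sham, 26.3, 7.43 and 3.98 in AB, and 3.49, 6.44 and 6.85 in AB_Implant. It was at 13.2, 18.1 and 10.7 CPM in VNS20_1w, 5.97, 5.01 and 8.15 in VNS20_2w, 10.6, 12.2 and 20.4 in VNS20_4w, and 10.1, 6.45 and 10.8 in VNS10_1w. The Sham heart highest in Ciart, replicate 3, was also the Sham heart highest in Dbp, and the same held for AB replicate 1. Across the 21 libraries Ciart and Dbp correlated at r = 0.83 and rho = 0.87 (adjusted permutation p = 0.00009 and 0.000112 over 45 pairs), at r = 0.81 without the 2 farthest libraries and at r = 0.83 after the length slope was removed.

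The period genes encode the feedback repressors that act with the cryptochromes. Per1 was at 65.7, 57.8 and 103 CPM in Sham, which lay above the 46.1, 57.3 and 51.3 of VNS10_1w, the group next in mean level, and ran from 18.8 to 75.6 in the other groups. The difference of VNS20_2w from Sham was -1.14 on the log2 scale for Per1 (SE 0.36) and did not pass (adjusted p = 0.328, edgeR). In CPM without TMM scaling, Per2 was at 1.43, 1.98 and 1.74 in VNS20_4w, below every heart of the other 6 groups (2.25 to 32.0). After TMM scaling, which the tests use, VNS20_4w overlapped Sham in Per2. VNS20_4w replicate 2 then lay above Sham replicate 2. The Per2 difference of VNS20_4w from AB_Implant, -1.94 on the log2 scale (SE 0.76), did not pass (adjusted p = 0.161, edgeR). The VNS20_4w libraries also lay at the low end of the length slope, between -0.466 and -0.425. Per3 ran from 0.715 CPM in AB_Implant replicate 1 to 33.1 in VNS20_1w replicate 2, and all neighbouring groups in its order overlapped. Bhlhe41, which encodes the E-box repressor DEC2, ran from 1.69 to 15.3 CPM with overlap between all neighbouring groups, and groups held 14.8% of its variance.

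The REV-ERB genes did not run together. Nr1d1 was at 97.8, 89.0 and 36.7 CPM in Sham, 38.7, 23.1 and 36.0 in AB, 47.1, 28.5 and 13.6 in AB_Implant, and 22.1, 13.1 and 14.9 in VNS10_1w. VNS10_1w lay wholly below Sham, and its log2 difference of -2.01 (SE 0.49) had an unadjusted p of 0.000648 but did not pass over all genes (adjusted p = 0.197, edgeR). That Nr1d1 difference passed in DESeq2 (adjusted p = 0.010), with the length slope as a covariate (adjusted p = 0.0161) and without Sham replicate 3 (adjusted p = 0.0484). The other stimulated hearts were at 29.6, 45.3 and 24.5 CPM in VNS20_1w, 22.8, 27.4 and 34.3 in VNS20_2w, and 31.6, 50.6 and 67.5 in VNS20_4w. Groups accounted for 59.8% of the variance of Nr1d1.

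Nr1d2 followed the length slope more than the groups. It was at 45.3, 31.7 and 37.6 CPM in the 3 libraries with the steepest slope and at 1.21, 1.39 and 1.54 in VNS20_4w. Per kilobase, the ratio of Nr1d1 to Nr1d2 ran from 0.612 to 9.02 in VNS10_1w and was 45.8 or more in all VNS20_4w hearts. Its within-group SD of 1.23 on the log2 scale was exceeded by 0.570% of all tested genes.

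Arntl, the gene whose product drives the loop, varied 70.1-fold between hearts. The low end of that range rests on few counts, 4 in AB replicate 1, 5 in VNS20_1w replicate 3 and 9 in VNS20_1w replicate 1. Arntl was at 12.3, 9.53 and 0.594 CPM in Sham, 0.266, 1.78 and 6.64 in AB, and 18.7, 2.45 and 13.3 in AB_Implant. It was at 0.543, 1.12 and 0.368 CPM in VNS20_1w, 7.88, 3.68 and 4.94 in VNS20_2w, 3.71, 1.92 and 0.939 in VNS20_4w, and 2.23, 7.34 and 1.18 in VNS10_1w. High and low hearts stood side by side within Sham, AB and AB_Implant, and the within-group SD of 1.17 on the log2 scale was exceeded by 0.901% of all tested genes. The VNS20_1w hearts were all low, yet the log2 difference of -3.83 from AB_Implant did not pass in edgeR (SE 1.05, adjusted p = 0.159). DESeq2 called Arntl there and in VNS20_1w against Sham.

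Ciart and Dbp varied from heart to heart against Arntl. Across 21 libraries Ciart correlated with Arntl at r = -0.84 and rho = -0.83 (adjusted permutation p = 0.0002 for each, over 10 genes), and at r = -0.78 without the 2 libraries farthest from the Arntl median. Dbp correlated with Arntl at r = -0.73 and rho = -0.74 (adjusted permutation p = 0.0007 and 0.00075), and at r = -0.64 without those 2 libraries. Leaving out any 1 library kept both, at -0.87 to -0.81 for Ciart and -0.78 to -0.68 for Dbp. Within groups, where each value is a deviation from its group mean, r with Arntl was -0.87 for Ciart, -0.77 for Per1 and -0.76 for Dbp (adjusted permutation p = 0.00337 for each, permuted within groups). Without the 3 libraries of steepest length slope, r with Arntl was -0.83 for Ciart and -0.79 for Dbp, both past the threshold.

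Per1 and Nfil3 were at the edge. Per1 had r = -0.52 and rho = -0.50 with Arntl (adjusted permutation p = 0.0391 and 0.0744), and r = -0.41 without the 2 farthest libraries. Nfil3 had r = 0.52 and rho = 0.40 with Arntl (adjusted permutation p = 0.0391 and 0.142), r = 0.43 without the 2 farthest libraries and r = 0.25 within groups (adjusted permutation p = 0.458). The call was lost, for Per1, Nfil3 or both, without Sham replicate 3, AB replicate 1, AB_Implant replicate 1 or 3, VNS20_1w replicate 1 or 2, VNS20_2w replicate 2 or 3, VNS20_4w replicate 3 or VNS10_1w replicate 3, with adjusted permutation p up to 0.122 for Per1 and 0.177 for Nfil3. Without the 3 steepest libraries neither Per1 nor Nfil3 passed (adjusted permutation p = 0.0631 for each), while Per3 did in r (-0.59, adjusted permutation p = 0.0342) but not in rho (0.0787). Over all 21 libraries the other 6 genes did not pass, and r ran from -0.44 for Per3 to 0.08 for Nr1d2.

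Several of these genes also followed the length slope of the library. The share of all tested genes that passed with the slope was not computed. The first principal component of all tested genes, with 64.3% of their variance, followed it with r = 0.99, so the relation is not particular to clock genes. Nr1d2 correlated with it at r = 0.94 and rho = 0.94 (adjusted permutation p = 0.000055 and 0.00011 over 11 genes), and at r = 0.92 once the 2 libraries with slopes farthest from the median were dropped. Tef (r = 0.87), Per2 (0.73) and Per3 (0.68) also rose with the slope and Dbp fell with it (r = -0.66), each past the threshold in r and rho (largest adjusted permutation p = 0.00704). Without the 3 steepest libraries Nr1d2 (r = 0.89), Tef (0.72) and Dbp (-0.60) still passed, whereas Per2 (0.54, adjusted permutation p = 0.0589) and Per3 (0.38, adjusted permutation p = 0.230) did not. Arntl (r = 0.20), Nfil3 (-0.01) and Per1 (0.12) showed no relation that passed. The exons of Nr1d2, Tef, Per2 and Per3 sum to 5409, 7867, 5856 and 9608 bases, and those of Dbp to 2993. Those of Per1 (5631 bases, r = 0.12) and Bhlhe41 (6720, r = 0.37) are also long, yet neither gene passed. Nr1d1 (3077, r = -0.43), Ciart (2261, r = -0.39) and Nfil3 (2026, r = -0.01) did not pass either. The part of exon length in these relations was not tested.

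**Figure D2:**
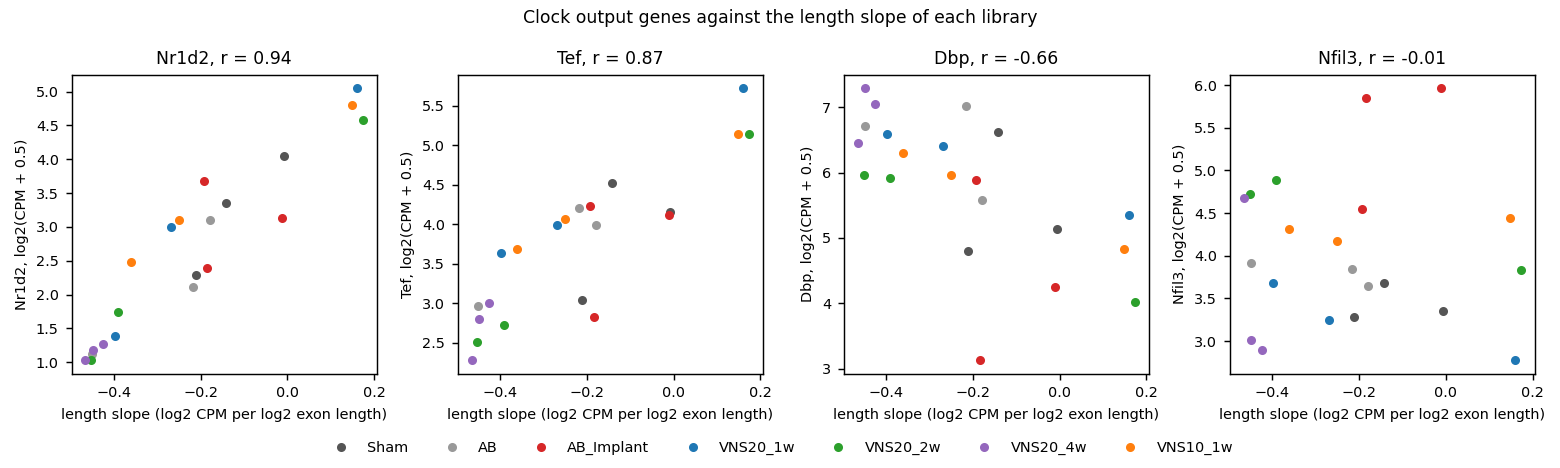
Level of 4 genes, as log2(CPM + 0.5) on the vertical axes, against the length slope of each library, with 1 point per heart coloured by group. Nr1d2 and Tef rise with the slope (r = 0.94 and 0.87), Dbp falls with it (r = -0.66), and Nfil3 shows no relation (r = -0.01) while its 2 highest points are AB_Implant hearts.

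With the length slope removed from each gene by regression, 7 of the 10 genes followed Arntl in place of 4. Over all tested genes, 4.79% were at least as strongly related to Arntl (r of either sign) as the weakest of those 4 genes before removal, and 8.53% as the weakest of the 7 after it. Tef then correlated with Arntl at r = -0.89 and rho = -0.89, against r = -0.26 before. Per3 reached r = -0.80 with rho = -0.86, Per2 r = -0.77 with rho = -0.77, and Dbp r = -0.81 with rho = -0.87. Ciart stayed at r = -0.84 with rho = -0.81, and Per1 was at r = -0.56 with rho = -0.50.

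Adjusted permutation p for r was 0.000033 for Tef, Dbp and Ciart. Before adjustment, these genes stood at the smallest p that 100000 permutations can give. For Per3, Per2 and Per1 the adjusted value was 0.00005, 0.0001 and 0.0119. For rho it was 0.000033 for Tef, Per3 and Dbp, 0.00015 for Ciart, 0.00018 for Per2 and 0.0368 for Per1. Without the 2 libraries farthest from the Arntl median, r was -0.88 for Tef, -0.79 for Dbp, -0.78 for Ciart, -0.77 for Per3, -0.71 for Per2 and -0.46 for Per1. These 6 genes passed without the 3 steepest libraries and in all 21 fits that left out 1 library, and r for Tef stayed between -0.92 and -0.88. The same 6 passed within groups with the slope removed, at r = -0.86 for Tef and Ciart, -0.84 for Per2, -0.82 for Dbp and -0.76 for Per3 and Per1 (adjusted permutation p = 0.00155 to 0.0120).

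Nfil3 was the opposite case, with r = 0.53 and rho = 0.45 after the slope was removed (adjusted permutation p = 0.0186 and 0.0607) and r = 0.45 without the 2 farthest libraries. Its call was lost without AB_Implant replicate 1 or VNS20_1w replicate 2, with adjusted permutation p up to 0.0843, and it did not pass without the 3 steepest libraries (r = 0.46, adjusted permutation p = 0.0743) or within groups (r = 0.34, adjusted permutation p = 0.202). Nr1d1 (r = 0.11, rho = 0.10), Nr1d2 (r = -0.33, rho = -0.37) and Bhlhe41 (r = -0.06, rho = -0.12) did not pass in r or rho (smallest adjusted permutation p = 0.119). Of the genes with an E-box in the window, Tef, Ciart and Per1 were among those that followed Arntl and Bhlhe41 was not, while Dbp and Per3 followed it with none in the window.

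**Figure D3:**
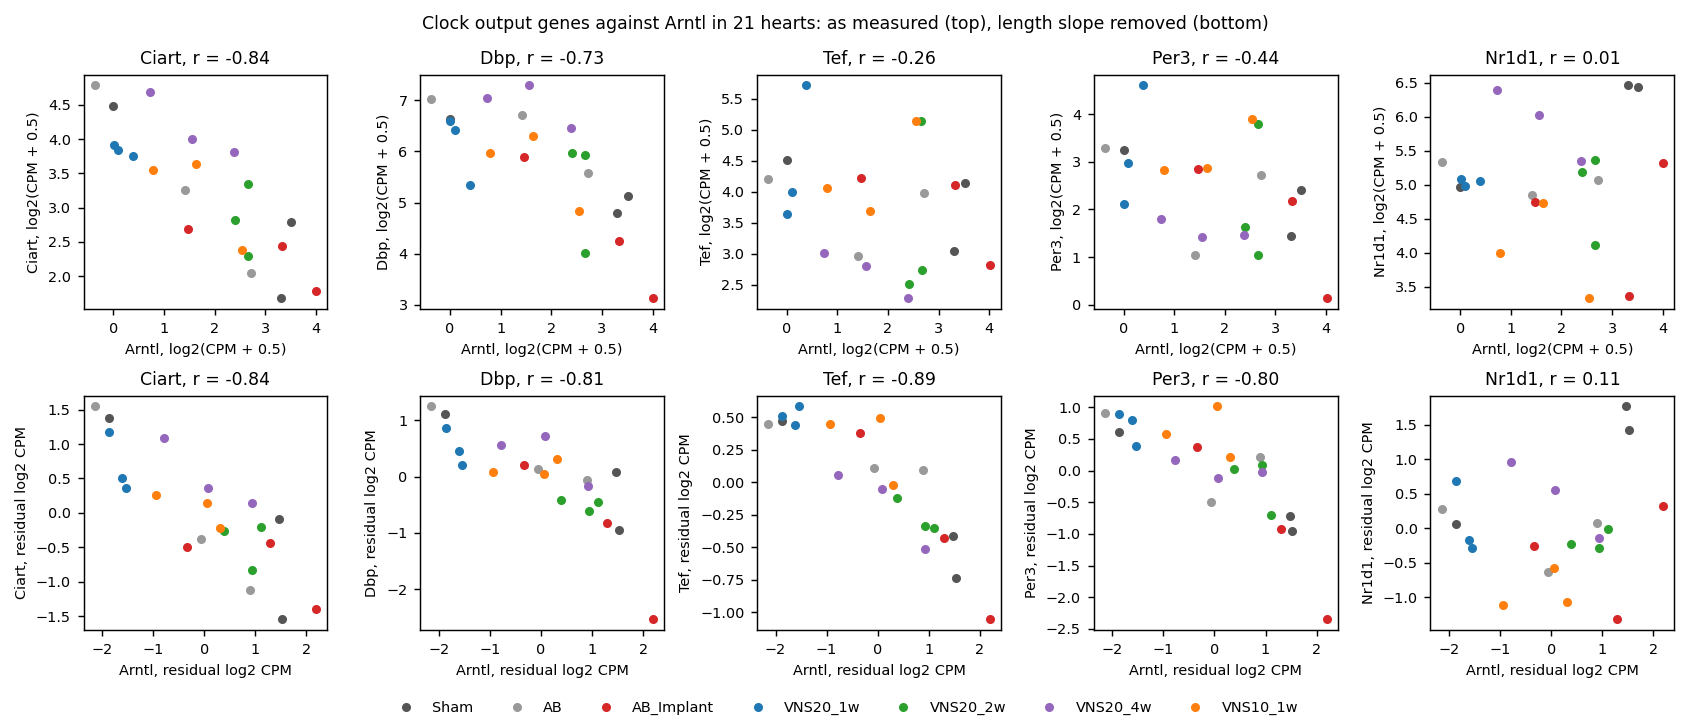
Each of 5 clock output genes (vertical axes) against Arntl (horizontal axes) in 21 hearts coloured by group, as log2(CPM + 0.5) in the top row and as residuals after regression on the length slope in the bottom row. Tef shows no clear relation in the top row (r = -0.26) and a falling line in the bottom row (r = -0.89), while Nr1d1 shows none in either (r = 0.01 and 0.11).

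Relations among the 10 genes changed in the same way. Here and below, counts of pairs past the threshold stand without a share over pairs of all tested genes, which was not computed. As measured, 8 of 45 pairs passed, of which 6 joined Per2, Per3, Tef and Nr1d2, the genes that rise with the length slope. Examples are Per2 with Tef (r = 0.92, rho = 0.89, adjusted permutation p = 0.00009 and 0.000112) and Tef with Nr1d2 (r = 0.91, rho = 0.90, with the same adjusted permutation p), at r = 0.90 and 0.88 without the 2 farthest libraries. The negative pair was Per2 with Nr1d1, at r = -0.65 and rho = -0.68 (adjusted permutation p = 0.00793 and 0.00613), and r = -0.61 without the 2 farthest libraries, and it did not pass within groups or without the 3 steepest libraries.

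With the slope removed 16 of 45 pairs passed. Dbp and Tef, the PAR bZIP pair, turned from r = -0.27 to r = 0.80 with rho = 0.71 (adjusted permutation p = 0.00018 and 0.00423), and to r = 0.71 without the 2 farthest libraries. Per3 with Dbp went from r = 0.01 to r = 0.83 with rho = 0.69 (adjusted permutation p = 0.00018 and 0.00637), and to r = 0.61 without the 2 farthest libraries. Dbp and Nfil3, activator and repressor of the same D-box, stood at r = -0.67 with rho = -0.59 (adjusted permutation p = 0.0051 and 0.0271), and at r = -0.58 without the 2 farthest libraries. Within groups with the slope removed, 6 of 45 pairs passed, all positive, and Dbp with Tef was at r = 0.87 and rho = 0.72 (adjusted permutation p = 0.0340 and 0.0514). Per3 with Dbp did not pass within groups (r = 0.84, adjusted permutation p = 0.0768), nor did Dbp with Nfil3.

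**Figure D4:**
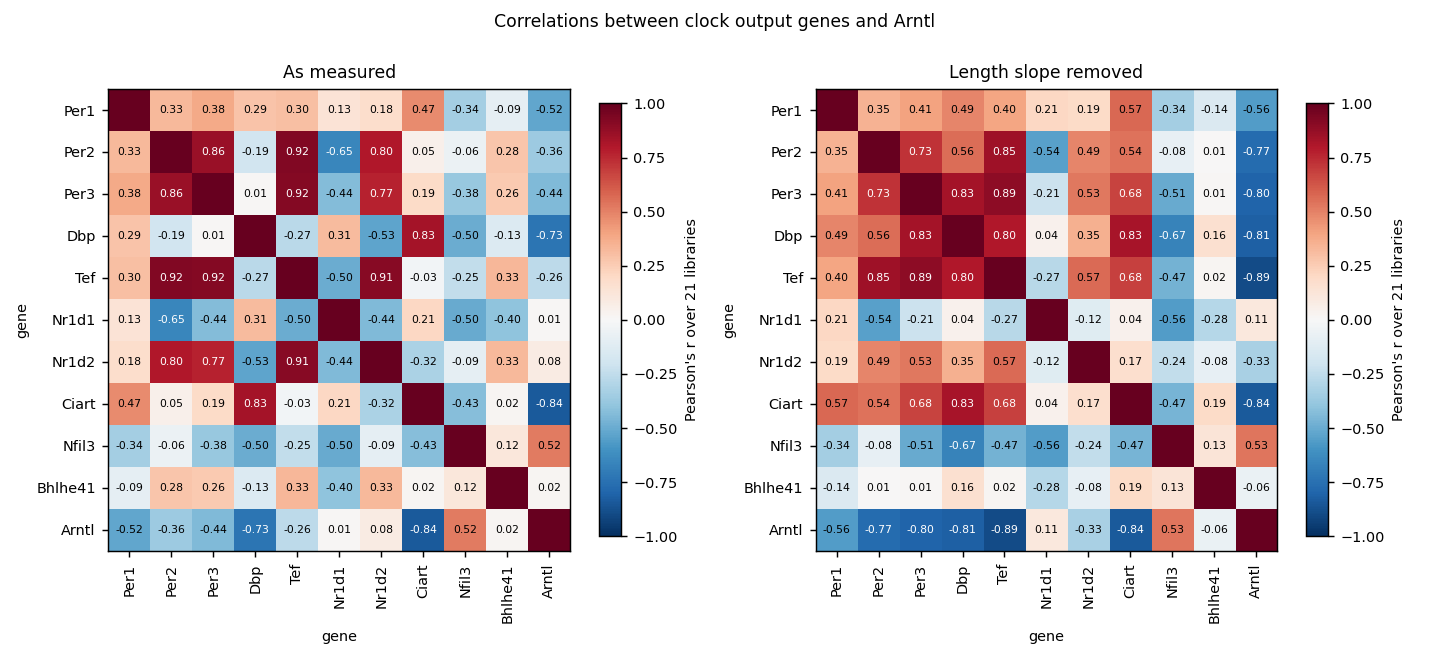
Pearson's r over 21 libraries between the 10 clock output genes and Arntl, on a colour scale from -1 (blue) to 1 (red), as measured (left) and after the length slope was removed (right). On the right Per2, Per3, Dbp, Tef and Ciart form a block of positive r from 0.54 to 0.89, each with a negative r with Arntl.

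The rest of the clock was checked with lists. Of the 4 activators (Arntl, Clock, Npas2, Arntl2), 6 repressors and kinases, Hlf and 7 clock-controlled genes that were tested, 0 passed in any contrast or F test in edgeR. At an unadjusted p under 0.05 there were at most 1, 2, 0 and 5 genes of these lists in any of them. Of all genes 3.97% to 26.6% were, depending on the comparison. In these lists DESeq2 called Arntl, Cry1, Wee1 and Kcnip2 in 1 or 2 comparisons each, where it called 0.554% to 4.47% of all genes. For AB_Implant against Sham the median log2 fold change was 0.21 over the 4 activators and -0.38 over the 10 output genes, against -0.01 over all 12100 tested genes. For VNS20_1w against AB_Implant it was -0.52 over the activators and 0.77 over the output genes, against 0.05 over all genes. The lists did not stand opposite each other in every contrast: VNS20_4w against AB_Implant gave medians of -1.69 for the activators and -0.43 for the output genes, VNS20_4w against Sham gave -1.22 and -0.44, and AB against Sham gave -0.98 and -0.02. With the slope removed, Clock (r = 0.64) and Npas2 (r = 0.63), the partners of BMAL1, rose with Arntl, and Cry2 (r = -0.73) and Hlf (r = -0.66) fell as it rose, with r and rho past the threshold over 40 genes (largest adjusted permutation p = 0.0266). Within groups as well, Cry2 still passed (r = -0.74, adjusted permutation p = 0.0294), but Clock, Npas2 and Hlf did not (adjusted permutation p = 0.103, 0.0591 and 0.192). Cry1 had r = -0.33 and rho = -0.33 (adjusted permutation p = 0.245 and 0.298). Tspan4, from the clock-controlled list, had r = -0.89 and rho = -0.91 with Arntl (adjusted permutation p = 0.0004 for each), and r = -0.87 without the 2 farthest libraries.

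Of 6 glucocorticoid-responsive genes 0 passed in any contrast or F test in edgeR. At most 5 had an unadjusted p under 0.05 in any comparison, beside 3.97% to 26.6% of all genes, depending on the comparison. DESeq2 called 4 of these genes (Fkbp5, Mt2, Sgk1 and Tsc22d3) at least once, in comparisons where it called 0.562% to 5.47% of all genes. Of 8 immediate early and CREB-responsive genes tested, Atf3 passed in VNS20_1w against AB_Implant, where it fell by 5.12 on the log2 scale (SE 1.07, adjusted p = 0.0396). Of 7 temperature-responsive genes, Hspa1a, Hspa1b and Hsp90aa1 rose in AB_Implant against Sham, and those 3 and Hsph1 fell in VNS20_1w against AB_Implant. Hspa1a also fell in VNS20_4w against AB_Implant, in the pooled stimulated groups against the unstimulated banded groups and in VNS20_1w against VNS10_1w. The cold-induced gene Cirbp correlated with Nfil3 at r = -0.69 and rho = -0.58 (adjusted permutation p = 0.00458 and 0.0401), at r = -0.43 without the 2 farthest libraries, and did not pass within groups with the slope removed (r = -0.51, adjusted permutation p = 0.329). Cirbp was picked after its values were seen and does not stand for its list. Of the 7 temperature-responsive genes, 6 had a positive log2 fold change in AB_Implant against Sham. Hspa1a and Hspa1b are near-identical copies and may share reads.

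Among all tested genes, the pattern most like Ciart over the 21 libraries was that of Dbp (r = 0.83), and after removal of the slope that of Tspan4 (r = 0.85). Most like Nfil3 was Abra (r = 0.92), an actin-binding regulator in striated muscle, and after removal of the slope Atf4 (r = 0.95), a stress-response bZIP gene. Most like Per2 was Tef (r = 0.92), and most like Dbp was Tcap (r = 0.92), which encodes a titin-binding protein of the sarcomere. Most like Nr1d2 was Canx (r = 0.97), which encodes calnexin, and most like Tef was Ahnak (r = 0.95). After removal of the slope Tef was most like Actr3b (r = 0.90), and Per3 most like Tef (r = 0.89). Each is the highest value over all tested genes and is given as a description.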

How the data were processed

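The deposited table of counts per gene (22136 genes, 21 libraries) was made by the authors. FastQC 0.11.9 and cutadapt 1.11 appear in the submitters' processing notes, as do HISAT2 2.1.0, the counter featureCounts 1.6.0 of Subread, R 4.0.3, edgeR 3.32.1 and the genome GRCm38 (mm10), with no order stated. The name of the table speaks of normalized counts. Its values were read as raw counts because 100% were whole numbers and library totals differed. Scaling and rounding would leave gaps between counts, and a measure of that unevenness was 0.638 to 1.58 as deposited and at least 9.59 in scaled copies. Columns of no sample numbered 0.

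Genes with at least 1 CPM in at least 3 libraries (12100) were tested with edgeR 4.0.16 in R 4.3.3, with TMM scaling, quasi-likelihood tests, all 7 groups in 1 model and no covariates. Benjamini-Hochberg adjustment was over all tested genes with a threshold of 0.05. CPM values are per library total without TMM. Alternatives used DESeq2 1.42.0 and limma 3.58.1. Correlations used log2(CPM + 0.5) after TMM and 100000 permutations of libraries, two-sided, adjusted within each family. Both procedures were tested on simulated data. Exon lengths, coordinates and symbols came from GENCODE release M 21 on GRCm38, and lengths were found for 22118 genes.

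The 10 genes and the lists were chosen with earlier results of these data known. Other genes are named from each list by the smallest p in the F test over all 7 groups (at most 4 of a list), with Arntl, Clock, Npas2, Cry1, Cry2 and Hlf always allowed, or as the genes most like a member; Cirbp was named after its values were seen. Same-numbered replicates did not deviate together, as 18 of 63 pairs correlated above 0.1. The results of 1 further gene list are not reported here.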

Additional observations from a re-analysis of the deposited data

How the results depend on the processing

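The number of clock output genes called depended on the test, and so did the share of all tested genes, given here in parentheses. Sample quality weights in limma voom called 4 (17.1%), 1 (18.5%), 5 (41.1%) and 3 (16.7%) of the 10 in VNS20_1w, VNS20_2w, VNS20_4w and VNS10_1w against AB_Implant, and 2 (23.2%), 4 (37.5%) and 1 (5.86%) in VNS20_2w, VNS20_4w and VNS10_1w against Sham. They called 1 (3.66%) for the stimulated against the unstimulated banded groups, 2 (16.5%) in VNS20_1w against VNS10_1w, 7 (47.9%) in the F test over 7 groups and 5 (20.8%) in that over the start weeks. Without the 3 libraries of steepest length slope, 7 (32.2%) were called in VNS20_4w against AB_Implant. Also without them, 3 (18.9%) were called in VNS20_2w and 3 (32.2%) in VNS20_4w against Sham, and 3 (20.3%) in the F test over 7 groups. Then 3 genes in place of 5 correlated with the length slope, counts whose share over all genes was not computed. Fits on the 2 groups alone called 7 (36.4%) in VNS20_4w against AB_Implant, 5 (35.9%) in VNS20_4w against Sham and 0 (0.132%) in VNS20_1w against AB_Implant. With the length slope as a covariate, 2 (6.03%) were called in AB_Implant against Sham, 2 (4.14%) in the F test over 7 groups, and 1 each in AB_Implant against AB (0.405%), VNS20_4w against AB_Implant (0.471%) and VNS10_1w against Sham (0.826%). DESeq2 called 2 in VNS20_4w against AB_Implant (3.81%) and 2 in the F test over 7 groups (4.47%). It called 1 each in AB_Implant against AB (0.562%) and VNS10_1w against Sham (0.521%). A minimum mean of 5 CPM left 0 (0.0913%) in the F test over 7 groups.

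Replicate numbers did not pair the hearts: the median correlation of same-numbered deviations was -0.06 and 1 library of 21 was closest to its own number. With the number as a replicate block, 0 of the 10 were called in AB_Implant against Sham, where 0% of all genes were. The F test over 7 groups then called 0 (0.388% of all genes), and 1 stayed called in VNS20_1w against AB_Implant (0.256%).

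Leaving out 1 library at a time gave 0 to 1 calls in AB_Implant against Sham, in VNS20_1w and VNS20_4w against AB_Implant, in VNS10_1w against Sham and in the F test over 7 groups, 2 to 5 genes past the threshold with Arntl, and 8 to 12 of 45 pairs. With a pseudocount of 2 CPM in place of 0.5, 3 genes passed with Arntl in place of 4. With the length slope removed 16 pairs and 7 genes with Arntl passed, and 16 pairs also without the 3 steepest libraries. The r of Dbp with Tef turned from -0.27 to 0.80 with the slope removed, 0.87 within groups as well, and 0.79 without the 3 steepest libraries. The fits with the slope removed within groups, without those libraries, or without each library were chosen after seeing the data. The cause of these changes was not tested.

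With 3 hearts a group, differences that failed to pass are not shown to be absent. The within-group spread of these genes limits what such groups can resolve.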
